A study of Phalaenopsis equestris with 4 samples.

Results

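Among the small heat shock proteins of the orchid Phalaenopsis equestris, 4 HSP20 gene models carry near-consecutive identifiers: HSP20_PEQU_14367, HSP20_PEQU_14369, HSP20_PEQU_14371 and HSP20_PEQU_14374. They were taken by identifier from the 15 HSP20 models in the deposited heat shock table, and all 4 had a contig with values. RNA of root, stem, leaf and flower from 3-year-old plants was sequenced, with 1 library for each tissue, and assembled de novo into 221878 contigs. No genotype, treatment or growth condition is given in the labels, and they do not say whether a library pooled several plants. Levels are FPKM, which by its usual definition is the number of fragments scaled to transcript length and library size. With a single library per tissue there is no replicate spread, so every difference below is between libraries and carries no p-value. In whole organs, a change in the number of cells that express a gene and a change in RNA per cell cannot be told apart.

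Small heat shock proteins are ATP-independent chaperones built around a conserved alpha-crystallin domain. They assemble into oligomers, bind proteins that are losing their fold and keep them soluble until ATP-driven chaperones such as HSP70 can refold them. Plants hold an unusually large family of them, with members directed to the cytosol, plastids, mitochondria and other compartments. In several flowering plants many members are low in unstressed vegetative organs, respond strongly to heat, and are also expressed during pollen and seed development. The identifiers alone do not give the class or compartment of these 4 proteins, and none of the PEQU identifiers is named in the RefSeq gene table of the species, so neither a chromosomal position nor a sequence is given for them here.

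Each model had its own contig. The contigs were c140231_g1_i1 for HSP20_PEQU_14367, c116508_g1_i1 for HSP20_PEQU_14369, c141986_g1_i1 for HSP20_PEQU_14371 and c139052_g1_i1 for HSP20_PEQU_14374. Each was the only contig of its Trinity gene and of its assembly component, so no further isoforms or fragments were grouped with it. The authors' alignment bit scores for these matches ran from 809 to 876, within the range of 126 to 992 for the other HSP20 contigs. The similarity of the 4 transcripts to each other was not analysed here, and reads that near-identical copies share could have been split between them in the authors' counting.

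The library sums of FPKM ran from 684575 in stem to 7179834 in leaf, so the libraries are not on 1 common total. Ratios of low values between libraries clustered at simple fractions, as whole reads would give. From these, 1 leaf read was worth 16.4 times as much FPKM as 1 root read of the same contig, 1 stem read 0.624 times and 1 flower read 0.555 times. Low leaf values therefore rest on the fewest reads. On log2 scale, median-of-ratios factors placed the leaf library 0.87 above root, while stem and flower lay 0.04 above root each.

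HSP20_PEQU_14369 had the most uneven profile of the 4. Its level was 391 FPKM in flower, against 7.31 FPKM in stem, 2.40 FPKM in root and 0.862 FPKM in leaf. The flower library alone was high, and the level in each of the others was below 8 FPKM. Fold differences between tissues of 1 model are given on the FPKM + 1 scale, which understates the change of low values, and ratios between models or of sums are of FPKM itself. On the former scale flower was 116-fold above root, 47.2-fold above stem and 211-fold above leaf. The flower value ranked it first among the 13 HSP20 contigs in that tissue, while its leaf value ranked it 13th. Of the 86757 contigs whose mean FPKM was 1 or more, 145 had a flower level at least as high. In the same set, 120 contigs had a flower minus root difference at least as large and 13 had a flower minus leaf difference at least as large. The leaf level lay among the lowest 7.05% of all leaf values above 0, so it may stand for very few reads. If that leaf value is at least 1 whole read, the relative read values put at least 13464 reads behind the flower level, 223 behind stem and 45.7 behind root. On the same assumption the flower level rests on many reads, and root and leaf, the lowest in order, differed by less than 4-fold.

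HSP20_PEQU_14367 was graded across the tissues. It stood at 0.782 FPKM in root, 9.22 FPKM in stem, 19.6 FPKM in leaf and 72.6 FPKM in flower. Root was the low library, and it was lower by at least 4-fold than each of the others. Flower was 41.3-fold above root and 7.21-fold above stem, while the 3.57-fold excess of flower over leaf did not reach 4-fold. Leaf was 11.6-fold and stem 5.73-fold above root. The leaf excess over root was 3.53 on the log2 scale, but 1.10 with the library sums made equal, and the stem excess was 2.52, but 1.30 with a pseudocount of 5 in place of 1; each of these ended the 4-fold call. Stem minus leaf was -1.01 as deposited, -0.24 with median-of-ratios factors and 2.03 with equal sums, or 0.23 without c157498, an assembly component that dominates the leaf library, so the order of stem and leaf depended on scaling. The root value was the lowest among the members in any tissue. If it is at least 1 read, at least 167 reads stand behind the flower level, 18.9 behind stem and 1.53 behind leaf. These are lower bounds, and the last says little about how many reads support the leaf level.

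HSP20_PEQU_14371 had the same order of tissues as deposited, at similar levels outside root. It had 2.29 FPKM in root, 8.46 FPKM in stem, 18.2 FPKM in leaf and 53.9 FPKM in flower. Its levels in stem and leaf differed from those of HSP20_PEQU_14367 by 1.09 and 1.08 times, and that in flower by 1.35 times. The pair differed most in root, where HSP20_PEQU_14371 was 2.92 times as high. Flower was 16.7-fold above root and 5.80-fold above stem, and leaf was 5.85-fold above root. Flower exceeded leaf by 2.85-fold and stem exceeded root by 2.88-fold, both under 4-fold. The leaf excess over root was 2.55 on the log2 scale as deposited, but 1.79 with median-of-ratios factors and -0.0063 once library sums were made equal, so its direction depended on how leaf was scaled. Stem minus leaf likewise went from -1.02 as deposited to -0.26, 1.99 and, without c157498, 0.21 under the 3 scalings.

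HSP20_PEQU_14374 was the steady member. Its levels were 39.6 FPKM in root, 35.3 FPKM in stem, 46.9 FPKM in leaf and 89.1 FPKM in flower. It was well expressed in every library, and root, stem and leaf differed by less than 1.5-fold. Flower was 2.22-fold above root, 2.48-fold above stem and 1.88-fold above leaf, so 0 of 6 tissue pairs reached 4-fold, against 4 pairs for HSP20_PEQU_14367, 4 for HSP20_PEQU_14369 and 3 for HSP20_PEQU_14371. With median-of-ratios factors leaf minus root was -0.60 in place of 0.24 log2 units, so the order of root, stem and leaf depended on scaling. With sums set equal after leaving out c157498, flower exceeded leaf by 2.21 log2 units, past 4-fold.

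**Figure D1:**
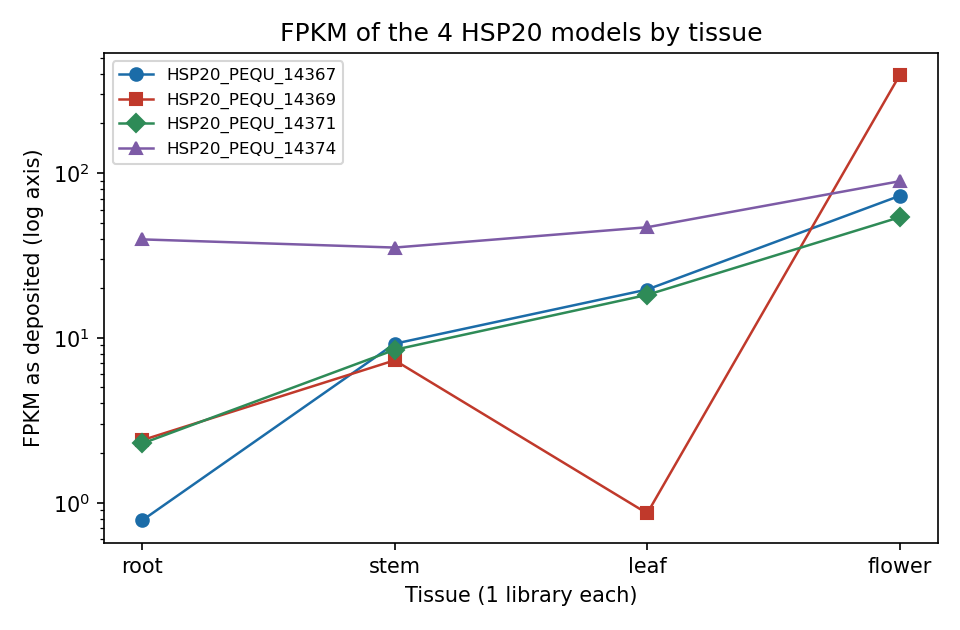
FPKM as deposited, on a log axis, of the 4 HSP20 models in root, stem, leaf and flower, 1 library each; each symbol is 1 value and lines only join the values of a model. All 4 are highest in flower, HSP20_PEQU_14369 drops to 0.862 FPKM in leaf, and HSP20_PEQU_14374 stays between 35.3 and 89.1 FPKM.

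All 4 models were highest in flower, where 8.37% of all contigs tested were highest. At least 4-fold, flower exceeded root in 3 of 4 models, against 5.54% of all contigs, and exceeded stem in 3 of 4, against 2.32%. The exception in both was HSP20_PEQU_14374. These shares cover contigs with a mean of at least 1 FPKM, many of them lower than the members. Among the 23496 contigs with a mean of at least 5 FPKM they were 12.7% for flower over root and 4.50% for flower over stem. Flower exceeded leaf by 4-fold in 1 of 4, HSP20_PEQU_14369, against 2.88% of all contigs. With median-of-ratios factors this count was 3 of 4. With either equal-sum scaling it was 4 of 4, so it depended on the scaling of leaf. Each of these scalings lowers leaf against flower in every contig. The share of all contigs was not recomputed under them, so 2.88% is not their background.

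The median flower minus root difference of the 4 was 4.72 log2 units, while the median over all contigs tested was -1.07. The median flower minus stem difference was 2.69, against -0.59 over all contigs, and flower minus leaf was 1.67, against -0.27. The medians over all contigs include many that were lower than the members. In the whole assembly 171440 contigs were above 0 in root and 116193 in flower. Median-of-ratios factors, taken from contigs above 1 FPKM in every library, placed flower only 0.04 above root. Differences among the 3 vegetative libraries were fewer. Leaf was at least 4-fold above root in HSP20_PEQU_14367 and HSP20_PEQU_14371, or 2 of 4, against 13.5% of all contigs and 26.8% of those with a mean of at least 5 FPKM. It was 1 of 4, HSP20_PEQU_14367, with median-of-ratios factors, with a pseudocount of 5 and with equal sums without c157498, and 0 of 4 with equal sums. The shares of all contigs were not recomputed under these settings. Stem was 4-fold above root in HSP20_PEQU_14367 only, against 4.87% of contigs, and 4-fold above leaf in HSP20_PEQU_14369 only, against 10.6%. With a pseudocount of 5 that last difference was 1.07 log2 units in place of 2.16, under 4-fold. Root was the lowest tissue in 2 of 4, against 18.5% of all contigs. HSP20_PEQU_14369 was lowest in leaf, and HSP20_PEQU_14374 in stem.

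**Figure D2:**
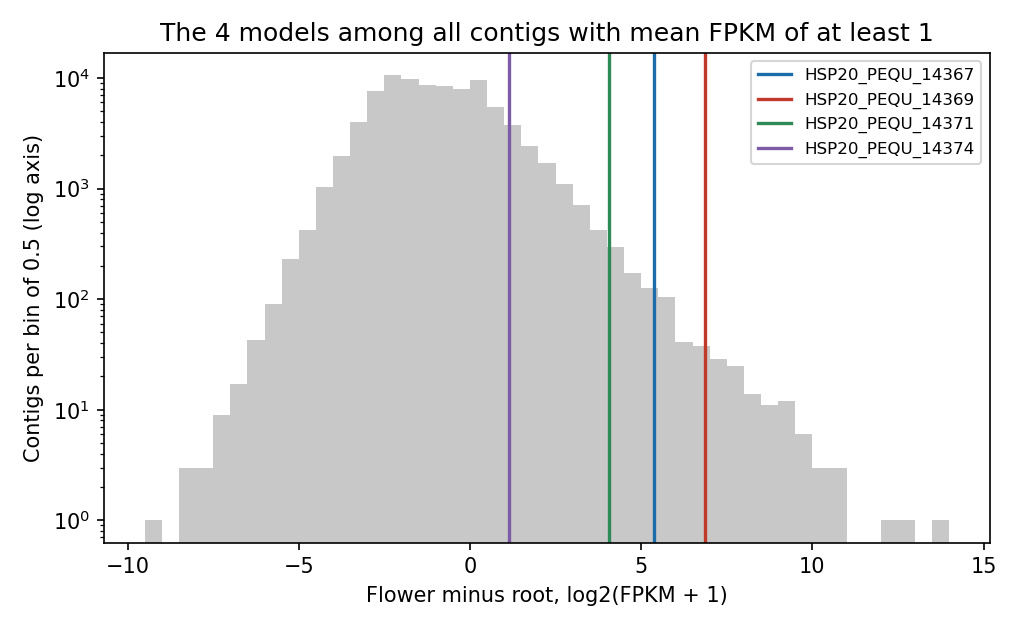
Number of contigs, on a log axis, in bins of 0.5 of the flower minus root difference of log2(FPKM + 1), for the 86757 contigs whose mean FPKM was 1 or more; vertical lines mark the 4 models. The lines lie at 1.15, 4.06, 5.37 and 6.85, all to the right of the median of all contigs at -1.07.

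Because the models differed in profile, the leading member changed with the tissue. HSP20_PEQU_14374 held 87.9% of the summed FPKM of the 4 in root, 58.5% in stem and 54.8% in leaf, but 14.7% in flower. HSP20_PEQU_14369 held 64.5% in flower, where it was first, but 12.1% in stem, 5.32% in root and 1.007% in leaf. The pair HSP20_PEQU_14367 and HSP20_PEQU_14371 never led, with shares of 11.97% and 8.88% in flower and 22.9% and 21.3% in leaf. These shares within a library do not depend on the scaling between libraries. The ratio of HSP20_PEQU_14369 to HSP20_PEQU_14374 showed the exchange most directly. The former was 4.39 times the latter in flower, whereas the latter was 16.5 times the former in root, 4.83 times in stem and 54.4 times in leaf. The gap between the highest and lowest member was 50.6-fold in root and 54.4-fold in leaf, wider than the 7.27-fold in flower and 4.83-fold in stem. The wide gaps rest on lowest values under 1 FPKM: as differences of log2(FPKM + 1) they were 4.51 in root and 4.68 in leaf, against 5.66 and 5.76 in log2 FPKM.

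**Figure D3:**
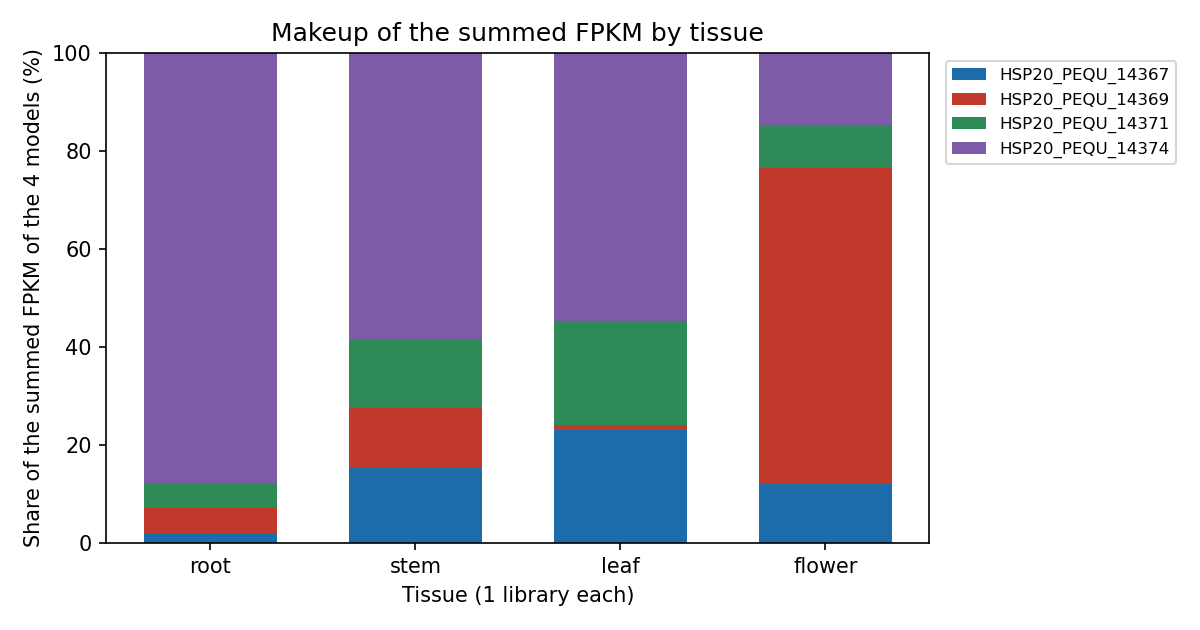
Share of the summed FPKM of the 4 models, in percent, held by each model in root, stem, leaf and flower, 1 library each; each bar adds to 100%. HSP20_PEQU_14374 holds 87.9% in root and HSP20_PEQU_14369 holds 64.5% in flower.

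Together the 4 models summed to 607 FPKM in the flower library, 85.6 FPKM in leaf, 60.3 FPKM in stem and 45.0 FPKM in root. Their share of the summed HSP20 level was 51.8% in flower, and it was 38.6%, 32.7% and 24.8% for root, stem and leaf. The flower sum was 13.5 times the root sum, and that of the 9 other HSP20 contigs was 7.89 times theirs. HSP20_PEQU_14369 decided this: without it the flower sum of the remaining 3 was 216 FPKM, 5.06 times their root sum, and their share of the HSP20 level without it was 27.6% in flower and 37.3% in root.

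The other HSP20 genes were set beside the 4 to see where these stood in the family. The table listed 11 further HSP20 models, of which 10 had values, on 9 contigs. Of these 9 contigs, 7 were highest in flower, against 8.37% of all contigs tested. Flower was at least 4-fold above root in 6 and above stem in 4, against 5.54% and 2.32%. As deposited, flower was at least 4-fold above leaf in 3, against 1 of the 4 models and 2.88% of all contigs. Root was lowest in 6, against 2 of the 4 models and 18.5% of all contigs. The median flower minus root difference of the 9 was 2.70 log2 units. The ranges from highest to lowest tissue of HSP20_PEQU_14369, HSP20_PEQU_14367 and HSP20_PEQU_14371 were 7.72, 5.37 and 4.06 log2 units, ranks 1, 2 and 5 of 13. HSP20_PEQU_14374, with 1.31, had the smallest range of all 13 as deposited, so the neighbouring identifiers held both ends of the family; over root, stem and flower only it was rank 12. Under equal-sum scaling its range became 4.14, or 2.21 without c157498. The median range of the other 9 was 3.33, with values from 1.37 to 5.34.

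In flower, the most abundant HSP20 contigs after HSP20_PEQU_14369 were HSP20_PEQU_09331 at 246 FPKM and HSP20_PEQU_23676 at 122 FPKM. HSP20_PEQU_14374 came next, followed by HSP20_PEQU_10259 at 76.5 FPKM. In root HSP20_PEQU_14374 was the highest of the family, ahead of HSP20_PEQU_10259 at 28.9 FPKM. Among the others, 2 were not highest in flower. HSP20_PEQU_07627 reached 3.99 FPKM in leaf and 2.29 FPKM in flower, and HSP20_PEQU_23675 reached 39.6 FPKM in leaf and 6.61 FPKM in flower and was listed at 0 in root and stem. The match of the latter to its contig had a bit score of 126, the lowest in the family.

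**Figure D4:**
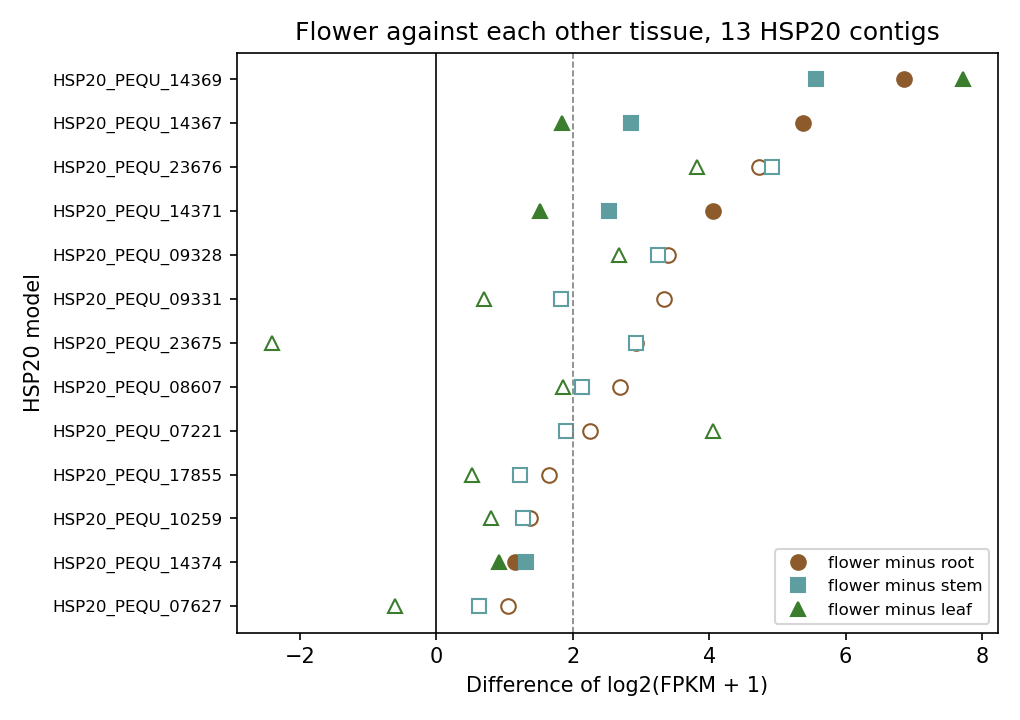
Difference of log2(FPKM + 1) between flower and root (circles), stem (squares) and leaf (triangles) for 13 HSP20 contigs, with the 4 models filled and the other 9 open; the solid line marks no difference and the dashed line 4-fold. HSP20_PEQU_14369 lies farthest right in all 3 comparisons, at 6.85, 5.56 and 7.72, while HSP20_PEQU_14374 lies between 0.91 and 1.31.

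Likeness of profiles was measured as the root mean square difference between 2 contigs over the 4 tissues. Each contig's mean log2(FPKM + 1) was first subtracted, so that 0 is an identical pattern of log2(FPKM + 1). Because 1 was added, proportional FPKM at a low and a high level do not give exactly 0. Among the 6 pairs of members the value ran from 0.49, for HSP20_PEQU_14367 and HSP20_PEQU_14371, to 2.58, for HSP20_PEQU_14369 and HSP20_PEQU_14374. The median of these 6 was 1.87, against 1.27 for the 36 pairs of a member with another HSP20 contig and 1.16 for the 36 pairs among the others. The 3 pairs with HSP20_PEQU_14369 gave the highest values, from 2.17 upwards.

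For HSP20_PEQU_14367 the most similar of the other 26 heat shock contigs was HSP20_PEQU_14371, followed by HSP20_PEQU_09331 at 0.72. Over the whole assembly, 66 of 86757 contigs were nearer to it than HSP20_PEQU_14371. For HSP20_PEQU_14371 the nearest was HSP20_PEQU_09331 at 0.33, a gene with 23.5 FPKM in root, 68.3 FPKM in stem, 151 FPKM in leaf and 246 FPKM in flower, and HSP20_PEQU_14367 was the next. HSP20_PEQU_14369 had no close match in the table. Its nearest was HSP20_PEQU_23676 at 1.499, with flower high and 3.65 FPKM in root, 3.08 FPKM in stem and 7.69 FPKM in leaf, followed by HSP20_PEQU_07221 at 1.76, a gene with 52.1 FPKM in flower that was likewise lowest in leaf, at 2.20 FPKM. Over root, stem and flower only, HSP20_PEQU_23676 was again its nearest, at 0.89, and HSP20_PEQU_14367 came next at 1.11. HSP20_PEQU_14374 was closest to HSP20_PEQU_10259, at 0.13, the other abundant and steady gene of the family, with 31.3 FPKM in stem and 43.5 FPKM in leaf. Next came the contig shared by HSP20_PEQU_17855 and HSP20_PEQU_41347, at 0.32. That contig was low, at 2.54 FPKM in flower and 0.130 FPKM in root, where adding 1 flattens a profile. The likeness values describe patterns over 4 libraries, and all pairs share those libraries.

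**Figure D5:**
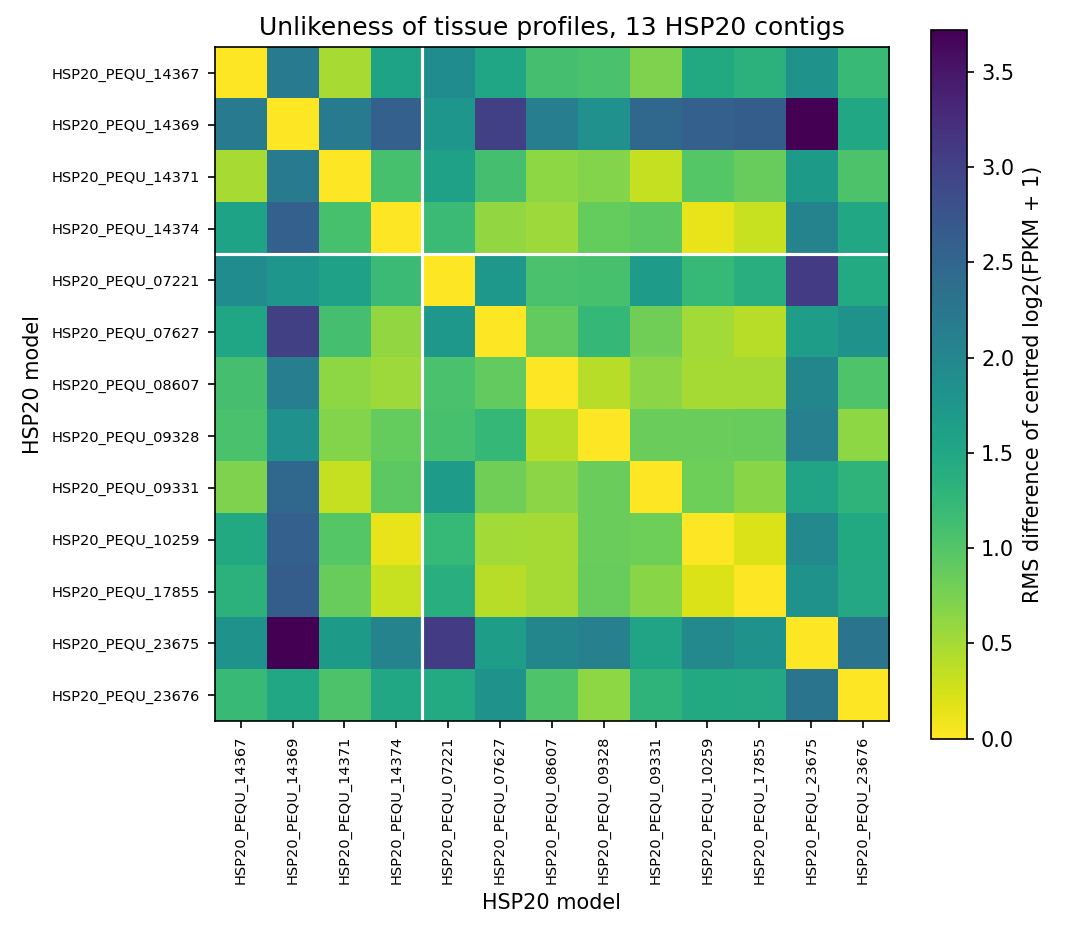
Root mean square difference of centred log2(FPKM + 1) over 4 tissues between each pair of the 13 HSP20 contigs, darker for less alike; white lines set off the 4 models, listed first. HSP20_PEQU_14369 is dark against nearly all others, while HSP20_PEQU_14374 and HSP20_PEQU_10259, at 0.13, are the most alike of the 78 pairs.

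The partner chaperones in the same table had smaller median differences between flower and each other tissue. Several of their contigs still exceeded HSP20_PEQU_14374 in flower minus root. Between stem and leaf the HSP90 median was -0.87 log2 units, larger in size than the -0.71 of the 4 HSP20 models. HSP70 proteins use ATP to refold proteins that small heat shock proteins hold, and HSP90 proteins act later on a set of client proteins such as kinases and receptors. Flower was at least 4-fold above root in 2 of 8 HSP70 contigs and 1 of 6 HSP90 contigs. The share was 5.54% of all contigs tested and 12.7% of those with a mean of at least 5 FPKM. Flower was at least 4-fold below root in 0 contigs of either family. Among all contigs tested that direction was the more frequent, and their median flower minus root difference was -1.07. Between -2.5 and -2 lay 10572 contigs, and between -3 and -2.5 lay 7614. The bins from 2 to 2.5 and from 2.5 to 3 held 1701 and 1095. The median flower minus root difference was 1.04 log2 units for HSP70 and 0.16 for HSP90, beside the 4.72 of the 4 HSP20 models. The largest in HSP70 was 2.55, for HSP70_PEQU_02517, at 372 FPKM in flower and 62.9 FPKM in root. The smallest was -0.996, for HSP70_PEQU_18080, at 2829 FPKM in flower and 5644 FPKM in root. In HSP90 they were 2.58, for HSP90_PEQU_31881, and -0.43, for HSP90_PEQU_15042. HSP20_PEQU_14369, at 391 FPKM in flower, was there beside HSP70_PEQU_02517, while in root, stem and leaf it stood below every HSP70 contig, the lowest of which were at 23.7, 31.4 and 31.6 FPKM.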

How the data were processed

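Per the labels' protocols and the design text of the series, total RNA of 4 tissues was sequenced on an Illumina HiSeq 1500, and contigs were built by the authors with Trinity, release r2013-02-25, keeping contigs of 200 nucleotides or more. The authors' processing notes on GEO name edgeR and DESeq with no role; the mapper and the FPKM estimator are not stated. The authors deposited FPKM values, per the file headers, and the heat shock table adds a bit score and an e-value for each match of gene model and contig, deposited by the authors with no search program named. All 28 rows with a contig equalled the table of all contigs.

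Here log2(FPKM + 1) was compared between libraries with Python 3.11.15, numpy 2.4.6 and pandas 2.3.3. FPKM are not counts and each tissue has 1 library, so no test was run; a difference was called at 4-fold, among contigs whose mean FPKM was 1 or more. Relative read values came from 154716 contigs that were alone in their Trinity gene. This procedure and the calls were run on simulated data. There each contig had the same underlying level in every library, apart from planted differences. The simulations therefore check the working of the steps and not how well they suit these tissues. The relative read values assume that 1 read is worth the same multiple in every contig. Columns were mapped to tissues by name. Named genes were the members, the 2 most similar heat shock contigs of each, the 3 other HSP20 contigs highest in flower, those not highest in flower, and the HSP70 and HSP90 contigs with the largest and smallest flower minus root difference. No contig could be matched to a tissue marker, so tissue labels were not checked. The members and lists were chosen with earlier results of these data known.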

Additional observations from a re-analysis of the deposited data

How the results depend on the processing

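Pseudocounts of 0.1 and 5, 3 scalings, thresholds of 2-fold and 8-fold, filters on the mean and summed Trinity genes were tried. All 4 models were highest in flower in each scaling and without the leaf library, and 3 of 4 were at least 4-fold above root under each scaling and pseudocount. The count above stem was 1 at 8-fold. The count differing between flower and leaf, 1 as deposited, was 3 with median-of-ratios factors and at 2-fold, and 4 with sums set equal, with or without c157498. No share of all contigs was counted at those settings. With sums set equal, 1 model was lowest in root, stem minus leaf turned to 2.03 for HSP20_PEQU_14367, 1.99 for HSP20_PEQU_14371 and 2.84 for HSP20_PEQU_14374, and leaf minus root turned to -0.0063 for HSP20_PEQU_14371 and -2.62 for HSP20_PEQU_14374; that scaling moves leaf by 3.003 log2 units against root. Of the other HSP20 contigs, 3 in place of 6 passed flower over root with a pseudocount of 5 and at 8-fold. With a mean of at least 5 FPKM, fewer contigs were tested, and those called were 2989 for flower over root, 1057 for flower over stem, 909 for flower over leaf, 6308 for leaf over root, 1562 for stem over root and 1754 for stem over leaf. Scalings for HSP70 and HSP90 and the other settings of likeness were chosen after seeing the data. HSP20_PEQU_14371 was nearest to HSP20_PEQU_14367 in each of them, while with a pseudocount of 0.1 the contig of HSP20_PEQU_17855 was nearest to HSP20_PEQU_14371, and with a pseudocount of 5 HSP20_PEQU_14367 was. No paired analysis was possible because each tissue has 1 library. The number of reads behind each value is known only relative to the other libraries, and leaf has the fewest per FPKM.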
